A study of Mus musculus with 17 samples.

Results

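The Homer genes Homer1, Homer2 and Homer3 were described in the mouse hippocampus after 5 h of sleep deprivation. Every probe set that the platform annotation pairs with exactly 1 gene symbol, that symbol being Homer1, Homer2 or Homer3, was kept: 10 of the 45037 probe sets that are not controls. Of these, 6 read Homer1, 3 read Homer2 and 1 read Homer3. Dissected hippocampus came from male mice of the strain C57BL/6J, given as C57/BL6 in the sample labels, with an age of 2 months in those labels and of 2 to 4 months in the growth protocol. Gentle handling kept 8 mice awake in their home cages over the 5 h, and 9 mice taken at matched times were left undisturbed. All animals lived singly on a cycle of 12 h light and 12 h dark, had been handled daily for 6 days before, and were each read on their own Affymetrix array. No group was handled and then left to sleep, so sleep loss and handling cannot be told apart. The genes were chosen by the measured difference between these groups, so that difference is given here as a description, and how many of their probe sets passed a threshold on it supports nothing.

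Homer proteins are scaffolds of the postsynaptic density of excitatory synapses. Their N-terminal EVH1 domain binds a proline-rich motif in group I metabotropic glutamate receptors, Shank proteins, inositol trisphosphate receptors and ryanodine receptors, and the long forms join into multimers through a C-terminal coiled coil. Homer1 also makes a short form, Homer1a, whose transcript ends within an intron and lacks the coiled coil. Neuronal activity induces Homer1a, which then competes with the long forms for the same partners, and its rise after wakefulness is known from other studies of the rodent brain. The annotation used here pairs probe sets with genes and not with transcripts, so no probe set below is assigned to an isoform. In the manufacturer's naming a suffix _a marks a probe set shared by several transcripts of 1 gene, which holds for 1421768_a_at and 1425710_a_at of Homer1 and for 1424367_a_at of Homer2.

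Values are log2 signals, and a difference is always sleep-deprived minus undisturbed on that scale. Array medians lay between 6.14 and 6.22. Signals of different probe sets depend on their probes, so levels are compared between animals and not between probe sets. The 10 markers of hippocampal excitatory neurons had levels from 7.38 to 12.6, and none of them passed the test between the groups. Of 5 astrocyte, 4 oligodendrocyte, 5 microglia and 5 endothelial markers measured, 1 passed, the endothelial receptor gene Tek (-0.26, limma adjusted p = 0.040). Over all 18193 genes 3.97% passed. Before adjustment 2 endothelial markers were lower, 1 microglia and 1 neuron marker lower, and 1 microglia and 1 neuron marker higher. Under that rule 10.9% of all genes were lower and 7.65% higher. The part of these cells in the Homer values was not tested. Choroid plexus markers, from tissue that can be carried along in a dissection, were measured through 10 genes at levels from 3.97 to 10.96. All 10 had positive differences (median 0.23), 1 was higher before adjustment and none passed. Their mean per array ran from 5.76 to 7.25 in undisturbed and from 5.78 to 7.52 in sleep-deprived animals. The 3' minus 5' signal of the Gapdh and actin control probe sets, a measure of RNA integrity, was 0.21 to 0.30 in undisturbed animals. It was 0.20 to 0.42 in sleep-deprived animals, with replicate 5 highest.

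The Homer1 probe sets disagreed in the same 17 RNA samples. The probe set 1436387_at was 2.08-fold higher in sleep-deprived animals, 1425671_at was 1.40-fold higher, and the other 4 differed by no more than 0.086 in either direction. For 1436387_at the 9 undisturbed animals ran from 7.74 through a median of 8.21 to 8.52. The 8 sleep-deprived animals ran from 8.93 through a median of 9.19 to 9.59. Every sleep-deprived animal lay above every undisturbed one, with a gap of 0.42 between the groups. The means were 8.18 ± 0.22 (SD, n = 9) and 9.23 ± 0.21 (SD, n = 8), a difference of 1.05 with a standard error (SE) of 0.094. That difference is 4.84 times the spread between animals of 1 group, and in size it ranked 1 among all 45037 probe sets.

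The second, 1425671_at, is a dim probe set whose mean level of 4.62 lies at the 25.4 percentile of all probe sets. Undisturbed animals ran from 4.02 through 4.47 to 4.56, and sleep-deprived animals from 4.67 through 4.87 to 5.03. These groups did not overlap either, but the gap was narrow, at 0.12. The means of 4.40 ± 0.18 (SD, n = 9) and 4.88 ± 0.12 (SD, n = 8) differed by 0.48 (SE 0.070). RMA, the summary used by the submitters, is known to compress differences at low signal, so the folds of the 2 probe sets are not ranked against each other.

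**Figure D1:**
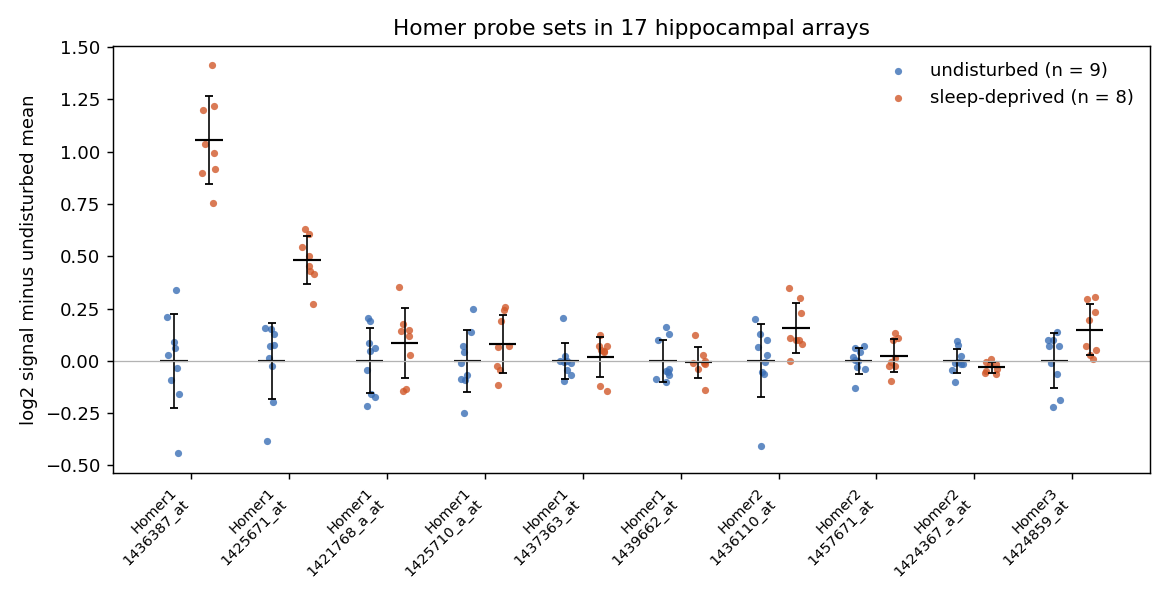
Log2 signal of each Homer probe set in each of the 17 arrays, as the difference from the mean of the 9 undisturbed animals for that probe set. Points are animals, and the bars give the group mean ± SD. The 2 leftmost Homer1 probe sets have all 8 sleep-deprived animals above all undisturbed animals, and the groups overlap in the other 8 probe sets.

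The other 4 Homer1 probe sets showed no such separation. The brightest, 1437363_at, ran from 10.96 through 11.06 to 11.26 in undisturbed animals and from 10.91 through 11.11 to 11.18 in sleep-deprived animals. Its groups covered nearly the same range, with a difference of 0.018 (SE 0.049). For 1439662_at the ranges were 10.12 to 10.38 and 10.08 to 10.34. Its difference of -0.0077 (SE 0.048) was 0.028 after quantile normalization or cyclic loess, 0.011 with array weights and 0.038 between group medians, so no direction can be given. The 2 probe sets shared by several transcripts lay slightly higher after sleep deprivation. For 1421768_a_at undisturbed animals ran from 7.51 through 7.77 to 7.93 and sleep-deprived animals from 7.58 through 7.86 to 8.08, a difference of 0.086 (SE 0.072). For 1425710_a_at they ran from 7.30 through 7.54 to 7.80 and from 7.44 through 7.62 to 7.81, a difference of 0.081 (SE 0.066). In both probe sets 1 sleep-deprived animal exceeded the highest undisturbed one, and both differences were smaller than 1 SD of either group.

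Long and short Homer1 transcripts are known to share a start region, and its sequence is shown because transcription factors of the CREB family, which carry synaptic activity to genes, bind sites with the core TGACG. The 250 bases before the first listed start of Homer1 (chr13:93303507-93303756, plus strand) and of Homer2 (chr7:81706926-81707175, minus strand) are RefSeq sequence of GRCm38.p6, read 5′ to 3′ in the direction of the gene, with TGACG on either strand in capitals.
Homer1: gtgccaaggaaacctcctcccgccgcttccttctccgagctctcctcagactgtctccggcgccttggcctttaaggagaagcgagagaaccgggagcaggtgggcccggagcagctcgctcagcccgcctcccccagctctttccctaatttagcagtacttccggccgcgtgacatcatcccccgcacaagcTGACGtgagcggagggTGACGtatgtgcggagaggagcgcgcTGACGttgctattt
Homer2: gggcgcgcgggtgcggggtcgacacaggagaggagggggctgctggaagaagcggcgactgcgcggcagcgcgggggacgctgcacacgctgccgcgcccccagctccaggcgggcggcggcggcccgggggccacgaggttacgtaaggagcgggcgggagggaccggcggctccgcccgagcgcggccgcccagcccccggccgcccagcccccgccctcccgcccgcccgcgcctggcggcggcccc
The Homer1 window holds TGACG 3 times, all on the strand of the gene, at 56, 40 and 14 bases before the start. The Homer2 window holds none, nor do the second listed starts of Homer1 and Homer2 or the window of Homer3. Of 32851 promoter windows of the same length 17.8% hold at least 1 and 0.688% at least 3. The full palindrome TGACGTCA, the AP-1 motif TGANTCA, the serum response element and the MEF2 element, searched on both strands, were not found in any of these 5 windows. They occur in 1.55%, 6.75%, 1.47% and 2.92% of all windows. TGACG is contained in the full palindrome, and a match of letters is not evidence of binding.

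Homer2 and Homer3 encode relatives of Homer1 with the same EVH1 domain and coiled coil. Their differences were all small, from -0.030 to 0.16. The bright Homer2 probe set 1424367_a_at ran from 10.43 through 10.52 to 10.62 in undisturbed and from 10.46 through 10.50 to 10.54 in sleep-deprived animals. Its difference was -0.030 (SE 0.037), and the sign turned after quantile normalization (0.011) and cyclic loess (0.0067). Homer2 probe set 1457671_at ran from 10.09 through 10.23 to 10.29 and from 10.12 through 10.22 to 10.35, a difference of 0.025 (SE 0.043) that was -0.0026 between group medians. The third Homer2 probe set, 1436110_at, was more variable. Undisturbed animals ran from 7.19 through 7.63 to 7.80 and sleep-deprived animals from 7.60 through 7.70 to 7.95, a difference of 0.16 (SE 0.069). Undisturbed replicate 4 lay far below the rest, the difference was 0.11 without it, and between group medians it was 0.076.

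Homer3 was read by 1424859_at. Undisturbed animals ran from 8.24 through 8.53 to 8.60 and sleep-deprived animals from 8.47 through 8.60 to 8.77. All 8 sleep-deprived animals lay above the undisturbed mean, yet the groups overlapped, with 4 sleep-deprived animals above the highest undisturbed one. The difference was 0.15 (SE 0.060), equal to 1.17 times the spread within a group, and 0.063 between group medians.

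Among the 10 Homer probe sets, 2 passed an adjusted p of 0.05 in limma fitted over all probe sets, both higher and both of Homer1. The background for that rule was 1.81% of the 45037 probe sets, with 0.584% higher and 1.23% lower. The groups of animals did not overlap in the same 2 Homer probe sets and in 0.486% of all probe sets. This contrast chose the genes, so these counts were settled by the choice and nothing is read from them. In bulk tissue, a different number of expressing cells and a different amount of RNA per cell cannot be told apart.

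**Figure D2:**
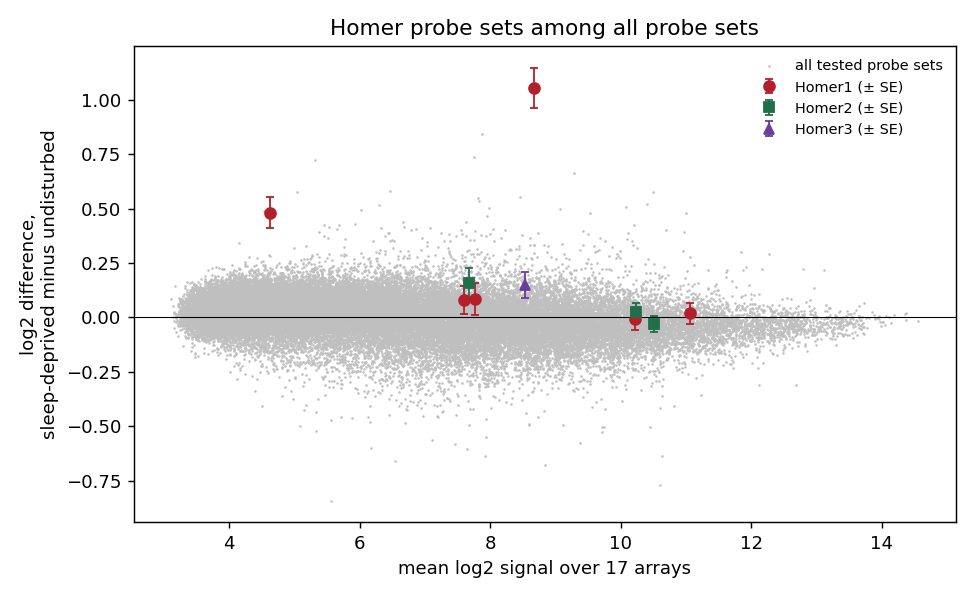
Difference between sleep-deprived and undisturbed animals on the log2 scale against the mean log2 signal over 17 arrays, for all 45037 probe sets in grey and the 10 Homer probe sets in colour with their SE. Homer1 probe set 1436387_at stands above all grey points at 1.05, 1425671_at lies at 0.48 near the dim end, and the others fall inside the grey band.

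Fits that also include the dissection and RNA measures gave the following differences. With the choroid plexus mean as a covariate the difference of 1436387_at was 1.05 and that of 1425671_at 0.47. With the 3' minus 5' control signal as a covariate they were 1.05 and 0.47. Without sleep-deprived replicate 5, whose control signal stood apart, they were 1.03 and 0.46.

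The same difference can be written within each array, which restates it and adds no evidence. The signal of 1436387_at minus that of 1437363_at, 2 readings of Homer1 from the same RNA, ran from -3.23 through a median of -2.85 to -2.66 in undisturbed animals. In sleep-deprived animals it ran from -2.11 through -1.91 to -1.52, with no overlap. Its means were -2.88 ± 0.17 (SD, n = 9) and -1.85 ± 0.22 (SD, n = 8).

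Differences as far apart as those of the Homer1 probe sets were rare within 1 gene on these arrays. Over 9010 genes with more than 1 probe set, the range of differences among the probe sets of a gene had a median of 0.098 and a 99th percentile of 0.40. In Homer1 the range was 1.06, from -0.0077 to 1.05, which ranked 1 of the 9010. Genes with more probe sets tend to have wider ranges, and among the 244 genes with 6 probe sets, where the median was 0.19, Homer1 also ranked 1. The next widest were Rprd2 (0.87 over 8 probe sets), which encodes a protein binding the RNA polymerase II tail, and Mrpl15 (0.75 over 8), a mitochondrial ribosomal protein gene. Homer2, at 0.19 over 3 probe sets, ranked 1614. These ranks come from the contrast that chose the genes and are descriptions. A wide range needs a probe set with a large difference. The ranks therefore do not show how often probe sets disagree in genes that differ between the groups.

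**Figure D3:**
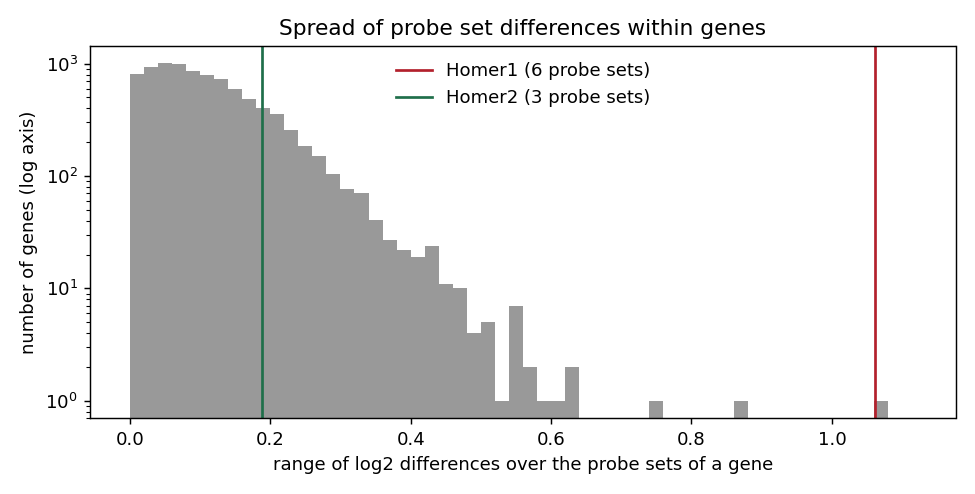
Number of genes, on a log axis, by the range of log2 differences (sleep-deprived minus undisturbed) over the probe sets of a gene, for 9010 genes with more than 1 probe set. The lines mark Homer1 at 1.06, beyond every other gene, and Homer2 at 0.19, within the bulk.

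In variation between animals of 1 group the Homer probe sets were unequal. The spread within groups of 1436387_at was 0.22, against a median of 0.11 for the 4724 probe sets whose mean level lay within 0.5 of its own, at the 96.5 percentile. The bright Homer2 probe set 1424367_a_at lay at the other end, with a spread of 0.046 against a median of 0.097 and at the 1.03 percentile of 2233 probe sets of like level. The bright Homer1 probe sets 1437363_at and 1439662_at were ordinary, at the 41.8 and 37.9 percentiles. Animals therefore differed more from one another in 1436387_at than in most probe sets of like signal, in addition to the difference between the groups.

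Whether the Homer1 probe sets moved together from animal to animal was tested within each group, over the 15 pairs in 2 groups, 30 relations in all. Of these 28 were positive, 13 in undisturbed and 15 in sleep-deprived animals, 6 had an unadjusted p under 0.05 in an exact permutation test, and none passed after Benjamini-Hochberg adjustment. The 15 pairs come from 6 probe sets and are not independent, so these counts are descriptions. The smallest adjusted p was 0.052 by exact permutation of Pearson's r and 0.067 with Spearman's rho, where 2 relations had an unadjusted p under 0.05. The median r of the pairs was 0.20 in undisturbed and 0.55 in sleep-deprived animals. Over 30372 pairs of probe sets of the same gene on these arrays it was 0.18 and 0.24. Within a group of this size r between 1436387_at and an unrelated gene also scattered widely, with a 5 to 95 percentile range of -0.70 to 0.68 in undisturbed and -0.68 to 0.65 in sleep-deprived animals.

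The 2 higher probe sets, 1436387_at and 1425671_at, had r = 0.80 and rho = 0.71 over the 8 sleep-deprived animals (two-sided exact permutation, p = 0.017 and 0.058, adjusted p = 0.13 and 0.45). Sleep-deprived replicate 6 was highest in both and replicate 2 lowest in both. Over the 9 undisturbed animals they had r = 0.60 and rho = 0.33 (exact permutation, p = 0.099 and 0.39, adjusted p = 0.37 and 0.61), with replicate 5 lowest in both. Without the 2 animals farthest from the median of 1436387_at r was 0.42 in sleep-deprived and 0.30 in undisturbed animals, over a narrower range of signal. Leaving out 1 animal at a time gave 0.68 to 0.92 in sleep-deprived animals and 0.028 to 0.76 in undisturbed animals, the lowest of these without replicate 5.

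The closest pair were the 2 probe sets shared by several transcripts, 1421768_a_at and 1425710_a_at, with r = 0.90 and rho = 0.93 in sleep-deprived animals (exact permutation, p = 0.0017 and 0.0022, adjusted p = 0.052 and 0.067). Their r stayed at 0.79 without the 2 farthest animals, and it was 0.49 in undisturbed animals (rho = 0.53, exact permutation, p = 0.18 and 0.15, adjusted p = 0.42 and 0.45), where it was 0.017 without the 2 farthest. Among undisturbed animals 1436387_at was set against 1437363_at (r = 0.77, rho = 0.57, exact permutation, p = 0.025 and 0.11, adjusted p = 0.15 and 0.45) and 1439662_at (r = 0.74, rho = 0.65, exact permutation, p = 0.015 and 0.067, adjusted p = 0.13 and 0.45). The r values were 0.33 and 0.57 without the 2 farthest animals. In sleep-deprived animals 1436387_at had r = 0.16 with 1437363_at (rho = 0.048, exact permutation, p = 0.71 and 0.93, adjusted p = 0.78 and 0.96) and r = 0.70 with 1439662_at (rho = 0.76, exact permutation, p = 0.051 and 0.037, adjusted p = 0.22 and 0.45), or -0.63 and 0.60 without the 2 farthest. The difference between the groups in these relations was not tested. The pair 1437363_at and 1439662_at had r = 0.73 in undisturbed animals (rho = 0.59, exact permutation, p = 0.0072 and 0.10, adjusted p = 0.11 and 0.45), and 0.41 without the 2 farthest animals. In sleep-deprived animals 1421768_a_at and 1437363_at had r = 0.72 (rho = 0.55, exact permutation, p = 0.045 and 0.17, adjusted p = 0.22 and 0.47), which turned to -0.61 without the 2 farthest animals.

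**Figure D4:**
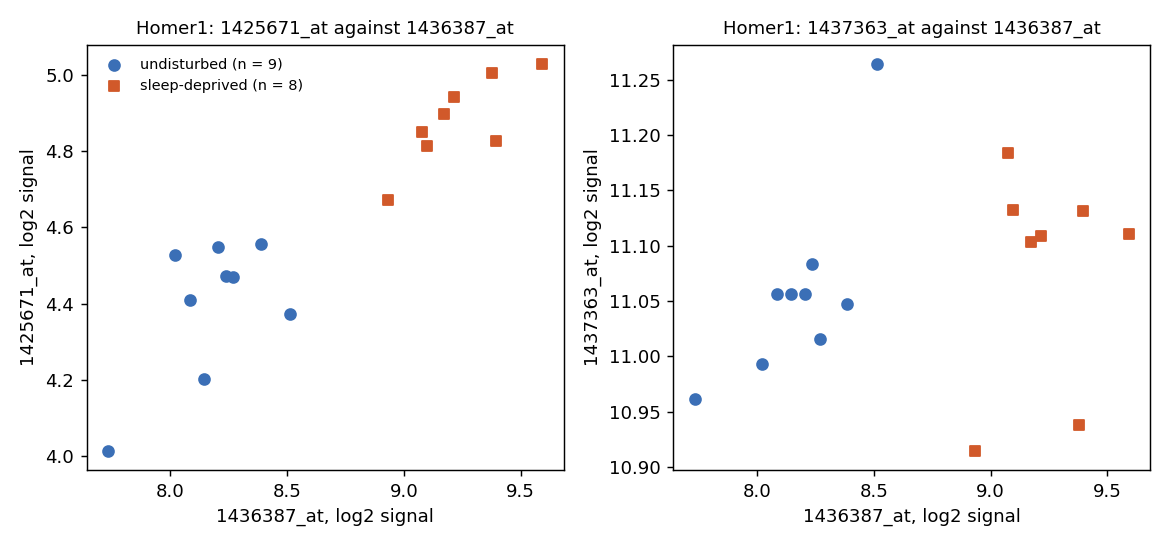
Log2 signal of Homer1 probe sets 1425671_at (left) and 1437363_at (right) against 1436387_at, 1 point per animal, with 9 undisturbed animals as circles and 8 sleep-deprived animals as squares. On the left the groups lie apart on both axes, with r = 0.60 and 0.80 within them, and on the right they lie apart on the horizontal axis alone.

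The signal of 1436387_at was also set against 8 genes that neurons switch on with activity, among them Arc and Fos, within each group. Of the 16 relations none passed after adjustment, 2 had an unadjusted p under 0.05 in an exact permutation test, and the smallest adjusted p was 0.055 (0.30 for Spearman's rho). With Arc, r was -0.26 in undisturbed and -0.019 in sleep-deprived animals (rho = -0.40 and 0.071, exact permutation, p = 0.51 and 0.97, adjusted p = 0.97 for both). With Fos it was 0.092 and 0.37 (rho = -0.050 and 0.24, exact permutation, p = 0.82 and 0.37, adjusted p = 0.97 for both). Leaving out the 2 farthest animals gave -0.31 and -0.015 for Arc and -0.43 and 0.74 for Fos. Bdnf, the gene of a neurotrophin released by active neurons, had r = 0.87 and rho = 0.81 in sleep-deprived animals (exact permutation, p = 0.0034 and 0.018, adjusted p = 0.055 and 0.30), 0.66 without the 2 farthest animals, and r = -0.094 in undisturbed animals (rho = -0.33, exact permutation, p = 0.81 and 0.39, adjusted p = 0.97 and 1.0). Egr1, an activity-induced transcription factor gene, had r = 0.72 in undisturbed animals (rho = 0.57, exact permutation, p = 0.027 and 0.12, adjusted p = 0.22 and 0.64) and 0.15 without the 2 farthest.

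Genes whose signal was most like that of 1436387_at were taken by Pearson's r over the 17 arrays, which includes the difference between the groups. The highest were Zfp236, a zinc finger gene (r = 0.95), Hspa5, the main chaperone of the endoplasmic reticulum (0.94 and 0.92 for 2 probe sets), Cys1, a gene of primary cilia (0.92), and Upf2, a factor of nonsense-mediated mRNA decay (0.92). These had differences of 0.19, 0.48, 0.43, 0.36 and 0.31 in the order Zfp236, the 2 of Hspa5, Cys1 and Upf2. The most opposite were Usp3, a deubiquitinase gene (-0.94), Haghl (-0.92 and -0.91), Rprd2 (-0.90) and Sptlc2, a gene of sphingolipid synthesis (-0.90). Once each group's mean was removed, the most alike over the 17 residuals were Pus3 (0.86), Rmdn3 (0.84), Aifm1 (0.83), Zfp236 (0.83) and Ptgs2 (0.82). For the brightest Homer1 probe set, 1437363_at, the 5 most alike over the residuals were Mtpn (0.92), Gnai1 (0.90), Ptprk (0.90), Neto1 (0.89) and Hspa4l (0.89). These r values were picked as the highest of all single-gene probe sets and carry no test.

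The proteins that Homer binds showed no called gene. Of 21 such genes 16 were measured, none was called higher or lower in limma over all 18193 genes, where 1.25% were higher and 2.73% lower, and without adjustment 3 of the 16 were lower and none higher, where 10.9% of all genes were lower and 7.65% higher. Their median difference was -0.038, against 0.0016 over all genes, and their range was -0.15 to 0.10. Grm5, the group I metabotropic glutamate receptor of hippocampal pyramidal cells, ran from 11.30 through 11.44 to 11.51 in undisturbed and from 11.09 through 11.44 to 11.53 in sleep-deprived animals (-0.037, SE 0.061, adjusted p = 0.78). Shank3, the scaffold that joins Homer to the rest of the density, was at -0.0052 (SE 0.049, adjusted p = 0.97), and its relative Shank1 at -0.040 (SE 0.048, adjusted p = 0.69). The Shank1 probe set was dim, with a mean level of 5.20 against array medians of 6.14 to 6.22, so little can be read from its value. The lowest adjusted p was that of Trpc4, a cation channel gene, at 0.094 (-0.14, SE 0.047), which passed without sleep-deprived replicate 1 (adjusted p = 0.034).

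Of 15 partners further into the density, PSD-95 family scaffolds, their associated proteins, NMDA receptor subunits and neuroligins, 13 were measured. In limma 1 was called lower and none higher, where 2.73% of all 18193 genes were lower and 1.25% higher. Before adjustment 2 of the 13 were lower and none higher, where 10.9% of all genes were lower and 7.65% higher. The called gene was Nlgn3, which encodes a postsynaptic adhesion protein. It ran from 8.89 through 9.03 to 9.09 in undisturbed and from 8.51 through 8.82 to 8.90 in sleep-deprived animals, and all 8 sleep-deprived animals were below the undisturbed mean (-0.24, SE 0.057, limma adjusted p = 0.022). Its other probe sets were at -0.074 and 0.044, and with the mean of all 3 the call was lost (-0.089, adjusted p = 0.30). Dlg4, the gene of PSD-95, was at -0.049 (SE 0.12, adjusted p = 0.87).

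Of 15 genes of group I metabotropic glutamate receptor signalling 12 were measured and none was called by limma, with 3 of the 12 lower and none higher before adjustment, under the rule that 10.9% and 7.65% of all genes met. Eef2k, the kinase that halts translation elongation downstream of these receptors, came nearest (-0.19, SE 0.058, adjusted p = 0.062) and passed in 7 alternative settings. All 12 differences were negative, with a median of -0.072, and 12 of 13 in the previous list. Genes of mean signal 6 or more had negative differences in 60.2% of cases on the deposited scale and in 48.9% after quantile normalization. After that normalization the negative counts were 12 of 12 and 8 of 13, and the medians -0.032 and -0.010.

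Homer1a is classed with effector genes that neurons induce directly with activity. Of 17 such genes, all measured, limma called 3 higher and none lower, where 1.25% of all 18193 genes were higher and 2.73% lower. Before adjustment 5 of the 17 were higher and 2 lower, where 7.65% of all genes were higher and 10.9% lower. The list was written with earlier results of these data known, so nothing is read from its counts. Arc, which encodes a synaptic capsid-forming protein, ran from 8.60 through 8.89 to 9.38 in undisturbed and from 9.33 through 9.66 to 9.89 in sleep-deprived animals (0.66, SE 0.11, limma adjusted p = 0.0014), the groups overlapping narrowly. Inhba, the gene of an activin subunit, was at 0.28 (SE 0.060, adjusted p = 0.011) and Dusp1, a MAP kinase phosphatase gene, at 0.27 (SE 0.061, adjusted p = 0.014), both above the undisturbed mean in 8 of 8 animals. Others of this class did not pass: the kinase gene Sgk1 (0.52, adjusted p = 0.054, past the threshold in 8 alternative settings), Bdnf (-0.10, adjusted p = 0.32), the polo-like kinase gene Plk2 (-0.072, adjusted p = 0.46) and Nptx2, a secreted pentraxin gene (-0.0018, adjusted p = 0.99). The median of the 17 was 0.030.

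**Figure D5:**
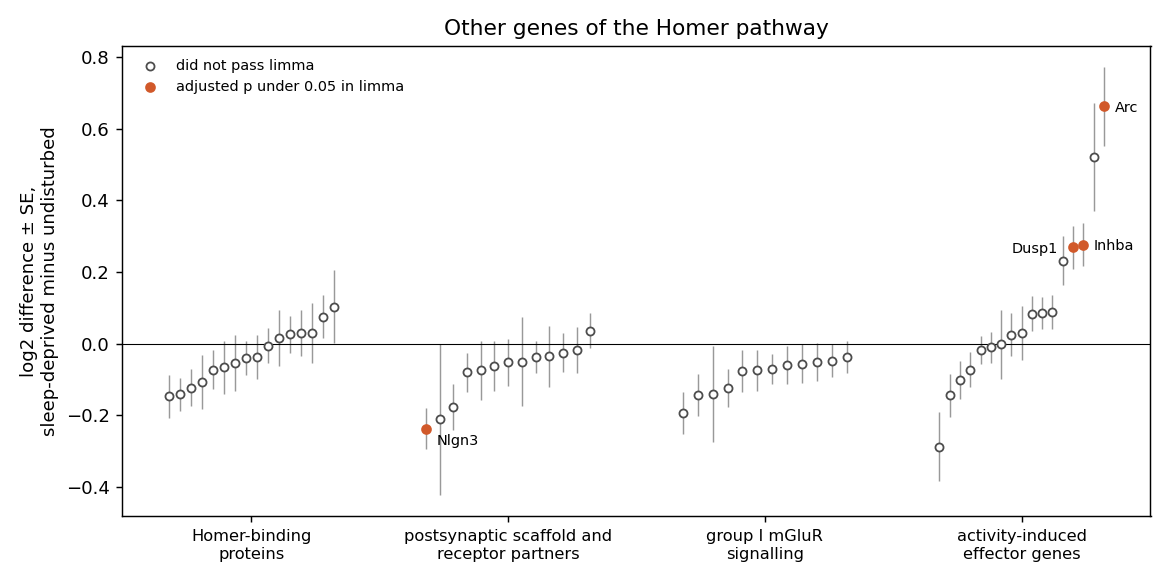
Difference between sleep-deprived and undisturbed animals on the log2 scale (± SE) for each measured gene of 4 lists, 1 probe set a gene, sorted within each list. Filled points passed limma at an adjusted p of 0.05: Nlgn3 among the partners, and Arc, Inhba and Dusp1 among the effector genes.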

How the data were processed

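Hippocampal RNA of 17 mice, separate animals per the labels, was read on 1 array each. The deposited values are log2 signals per probe set, made with RMA and the affy package per the submitters' processing notes. The base was taken from their range of 2.90 to 14.8, with versions and filters not given in the sources used here. As RMA values are relative, shifts shared by most genes cannot be seen. Arrays have no depth, and their number limits precision. Of 45101 probe sets 64 were controls, and 34945 of the rest carried 1 symbol. All 10 Homer probe sets matched the RefSeq table by Entrez identifier. Groups were compared with limma 3.58.1 (R 4.3.3, lmFit, eBayes) over 45037 probe sets, and over 18193 genes by the brightest probe set, with Benjamini-Hochberg adjustment. Relations used exact two-sided permutation of pairings. The genes, the lists and the rule for named genes (all Homer probe sets, called list members, fixed names, the 5 most alike) were chosen with earlier results of these data known. Fixed names without a single-symbol probe set were not analysed here. Trpc4, Eef2k, Sgk1, Rprd2 and Mrpl15 were named after their values were seen. The labels do not state that replicate numbers pair animals, so the groups were compared unpaired. Same-numbered deviations correlated at -0.068 to 0.39, which cannot exclude a pairing for some numbers. Alternatives were other scalings, a signal filter, other probe set rules, covariates, array weights, a replicate block and leaving out each array. The computations were tested on simulated data.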

Additional observations from a re-analysis of the deposited data

Results flagged for a closer look

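An animal lay far from the others of its group in 3 of the 42 groups of values looked at, where chance gives about 1 in 20 groups. For Homer1 probe set 1437363_at undisturbed replicate 1 was at 11.26, and the next animal at 11.08. The same animal was the highest undisturbed one in 1436387_at. For Homer2 probe set 1436110_at undisturbed replicate 4 was at 7.19, and the next at 7.54. For Shank3 sleep-deprived replicate 5, which also had the highest 3' minus 5' control signal, was at 10.79, and the next at 11.01. The Shank3 difference was -0.0052 over all animals and 0.0013 with that control signal as a covariate.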

How the results depend on the processing

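The differences of 1436387_at and 1425671_at stayed between 0.99 and 1.10 and between 0.40 and 0.51 over 25 alternatives each, and the other 8 Homer probe sets moved by less than the spread between animals. With a replicate block they were 1.07 and 0.49. The labels state no pairing by these numbers, and 1 of 8 sleep-deprived arrays correlated best with the undisturbed array of its own number. Of the 2 Homer probe sets past the threshold, 1 was left at a mean signal of at least 6, since 1425671_at is dimmer. Fewer probe sets are tested there, and 423 were higher and 909 lower. On the deposited scale 263 probe sets were higher and 553 lower. Quantile normalization gave 429 and 526, cyclic loess 410 and 574, and median centring 169 and 685. Without 1 array they ran from 173 to 272 and from 362 to 652. Of genes, 227 were higher and 496 lower, 335 and 390 after quantile normalization, 340 and 432 after cyclic loess, and 142 and 611 after median centring. Without 1 array they ran from 150 (undisturbed replicate 8) to 236 and from 309 (undisturbed replicate 4; 316 without sleep-deprived replicate 5) to 581.

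With the replicate block Dnm3 became the 1 lower Homer-binding gene, and Gnaq and Eef2k the 2 lower signalling genes. Eef2k was the 1 lower signalling gene with median centring, array weights or a mean signal of at least 6. Without 1 array the lower counts were 0 to 1 for Homer-binding genes, 0 to 1 for signalling genes (Eef2k without undisturbed replicate 5 or 9 or sleep-deprived replicate 1), 1 to 2 for the partners (Nlgn1 added without sleep-deprived replicate 8) and 0 to 1 for effector genes (Ptgs2 without undisturbed replicate 5 or sleep-deprived replicate 6). Higher effector genes numbered 3 to 4 without 1 array and 5 at a mean signal of at least 6, adding Pcsk1 and Sgk1, which passed in 6 and 8 alternatives. With the mean of all probe sets 0 partners and 1 effector gene, Ptgs2, were lower.

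Signs turned for the gene differences and r values below, not all of them near 0, and none of these passed in any alternative. Shank3 was at 0.034, 0.033, 0.0013, 0.018 and 0.0046 with quantile normalization, cyclic loess, the control signal covariate, the choroid plexus covariate and array weights, where Nptx2 was at 0.020, 0.013, 0.0030, 0.035 and 0.014. Without 1 array Shank3 ran from -0.030 to 0.026, Nptx2 from -0.065 to 0.050, Grm5 from -0.059 to 0.0043 and Dlg4 from -0.10 to 0.024. Grm5 was at 0.0020 after cyclic loess and 0.036 with its most variable probe set, where Bdnf was at 1.6e-05 and Plk2 at 0.10. With the mean of all probe sets Plk2 was at 0.015. Without 1 animal r of 1436387_at ran from -0.12 to 0.31 with Fos in undisturbed and from -0.45 to 0.44 with Arc in sleep-deprived animals. Without the 2 farthest animals it was -0.43 with Fos in undisturbed animals. In sleep-deprived animals r of 1421768_a_at with 1437363_at turned from 0.72 to -0.61 without the 2 farthest. The cause was not tested.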
